A study of Mus musculus with 10 samples.

Results

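The genes of mitochondrial complex I whose symbols start with Nduf were followed in 10 left ventricular samples from mouse hearts after transverse aortic constriction (TAC), an operation in which the aortic arch is tied narrower and the ventricle has to pump against a higher pressure. They were taken as every row of the deposited table with such a symbol that reached 1 CPM (reads scaled to a total of 1000000 per library) in at least 5 of the 10 libraries. Of 50 such rows, 48 qualified, among 12350 genes of 45706 in the table that passed the same filter. The 48 were 7 core subunits, 29 supernumerary subunits, 8 assembly factors (symbols starting with Ndufaf) and 4 other rows, namely Ndufa4, Ndufa4l2 and the processed copies Ndufb4c and Ndufa12-ps. The rows left out were Ndufb11b, at 0 in all 10 libraries, and Ndufs6b, which stayed under 1 CPM in all 10 (highest 0.940 CPM in osimertinib and 0.793 CPM in placebo). One group of 5 libraries came from TAC hearts given osimertinib, a lung cancer drug that blocks the kinase of the epidermal growth factor receptor. The other 5 came from TAC hearts given placebo, whose treatment label reads vehicle. No heart without TAC was analysed here, and the labels give no strain, age, sex, dose or duration. The labels name the material as all cells of the ventricle and leave unsaid whether each sample was a different animal, and p-values thus cover the spread between these samples alone.

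Complex I, NADH:ubiquinone oxidoreductase, is the entry point of electrons from NADH into the respiratory chain and one of the sites where protons are pumped across the inner mitochondrial membrane. Its core subunits carry the catalysis and are shared with bacteria, some being encoded in the nucleus and the others, the ND subunits, in mitochondrial DNA, whereas the supernumerary subunits surround the core and are needed for its stability and assembly. The assembly factors help to build the enzyme and are not part of the finished complex, and heart muscle, which lives mainly on oxidative metabolism, holds much of it.

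Each library held between 15863265 and 21309296 reads, as read from the spacing of the low CPM values. In every library the CPM summed to 1000000, so a library with more mitochondrially encoded RNA has less room for all other genes. Mitochondrially encoded genes took 31.7% to 45.2% of reads in osimertinib and 38.1% to 63.4% in placebo, where placebo library 5 was the highest. Fold changes were therefore computed for the deposited CPM and for CPM rescaled by the median ratio of each library to the geometric mean library. For many single genes only the rescaled fold change is given. The median log2 fold change of all 12350 genes was 0.27 in the deposited CPM and 0.01 after rescaling. All 10 cardiomyocyte markers were present, and their summed rescaled CPM ranged from 27410 to 45629 in osimertinib and from 14313 to 33262 in placebo. Of these 10 markers, 2 were called higher after rescaling and 6 in the deposited CPM. The 7 atrial muscle markers summed to 700.2 to 4597 rescaled CPM in osimertinib and 502.6 to 1389 in placebo, with Bmp10 at 0 throughout. Of the 6 atrial markers tested, none was called after rescaling and 3 were called higher in the deposited CPM. The endothelial markers summed to 1119 to 1438 rescaled CPM in osimertinib and 1296 to 1936 in placebo, with 2 of 6 called lower after rescaling. One macrophage marker of 7 was called higher after rescaling, and none of the fibroblast, smooth muscle or erythroid markers was called. In tissue RNA of this kind, fewer cells of a type and less RNA per cell cannot be told apart, and the part of cardiomyocyte content in the values below was not tested.

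A share of the Nduf genes rose in osimertinib relative to placebo, 25 of 48 in the deposited CPM and 13 of 48 after rescaling, and none fell. A gene was called where limma's p, after Benjamini-Hochberg adjustment over all 12350 genes, was under 0.05. All 48 fold changes were positive in the deposited CPM and 47 of 48 after rescaling, Ndufaf4 being the exception. In the deposited CPM 6.62% of all genes were called higher and 0.13% lower, and after rescaling 10.4% were called higher and 10.5% lower. The median log2 fold change of the 48 was 1.02 (range 0.19 to 1.54) in the deposited CPM and 0.76 (range -0.09 to 1.26) after rescaling. The 10 cardiomyocyte markers had a rescaled median of 0.80 and the 6 atrial muscle markers tested 1.02, so that both lists differed by about as much as the Nduf genes or more. The 36 subunits together made up 5529 to 9554 rescaled CPM in osimertinib and 2481 to 6726 in placebo, with placebo libraries 3 and 4, at 6726 and 6497, inside the osimertinib range. Only 2 of the 48, Ndufs1 and Ndufa10, had all osimertinib libraries above all placebo libraries, under either scaling, where 5.33% of all genes did so in the deposited CPM and 5.72% after rescaling. None of the 48 had all osimertinib libraries below placebo, where 0.081% and 6.82% of all genes did. The number called depended on single libraries. In the deposited CPM it was 15, 7 and 8 without osimertinib library 2, 3 and 5, and 8 and 6 without placebo library 1 and 5. In the same order 4.13%, 2.49%, 2.78%, 3.21% and 6.52% of all genes were called in either direction, against 6.74% with all 10 libraries. After rescaling the number of Nduf genes called was 4, 1 and 1 without osimertinib library 2, 3 and 5, 2, 1 and 3 without placebo library 1, 2 and 5, and 31 and 27 without placebo library 3 and 4. Of all genes 14.5%, 4.22%, 5.72%, 7%, 6.43%, 17.7%, 22.7% and 21% were called in these fits, against 20.8% with all 10 libraries. The counts by class below come from the same fits, in which the share of all genes called thus moved too.

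**Figure D1:**
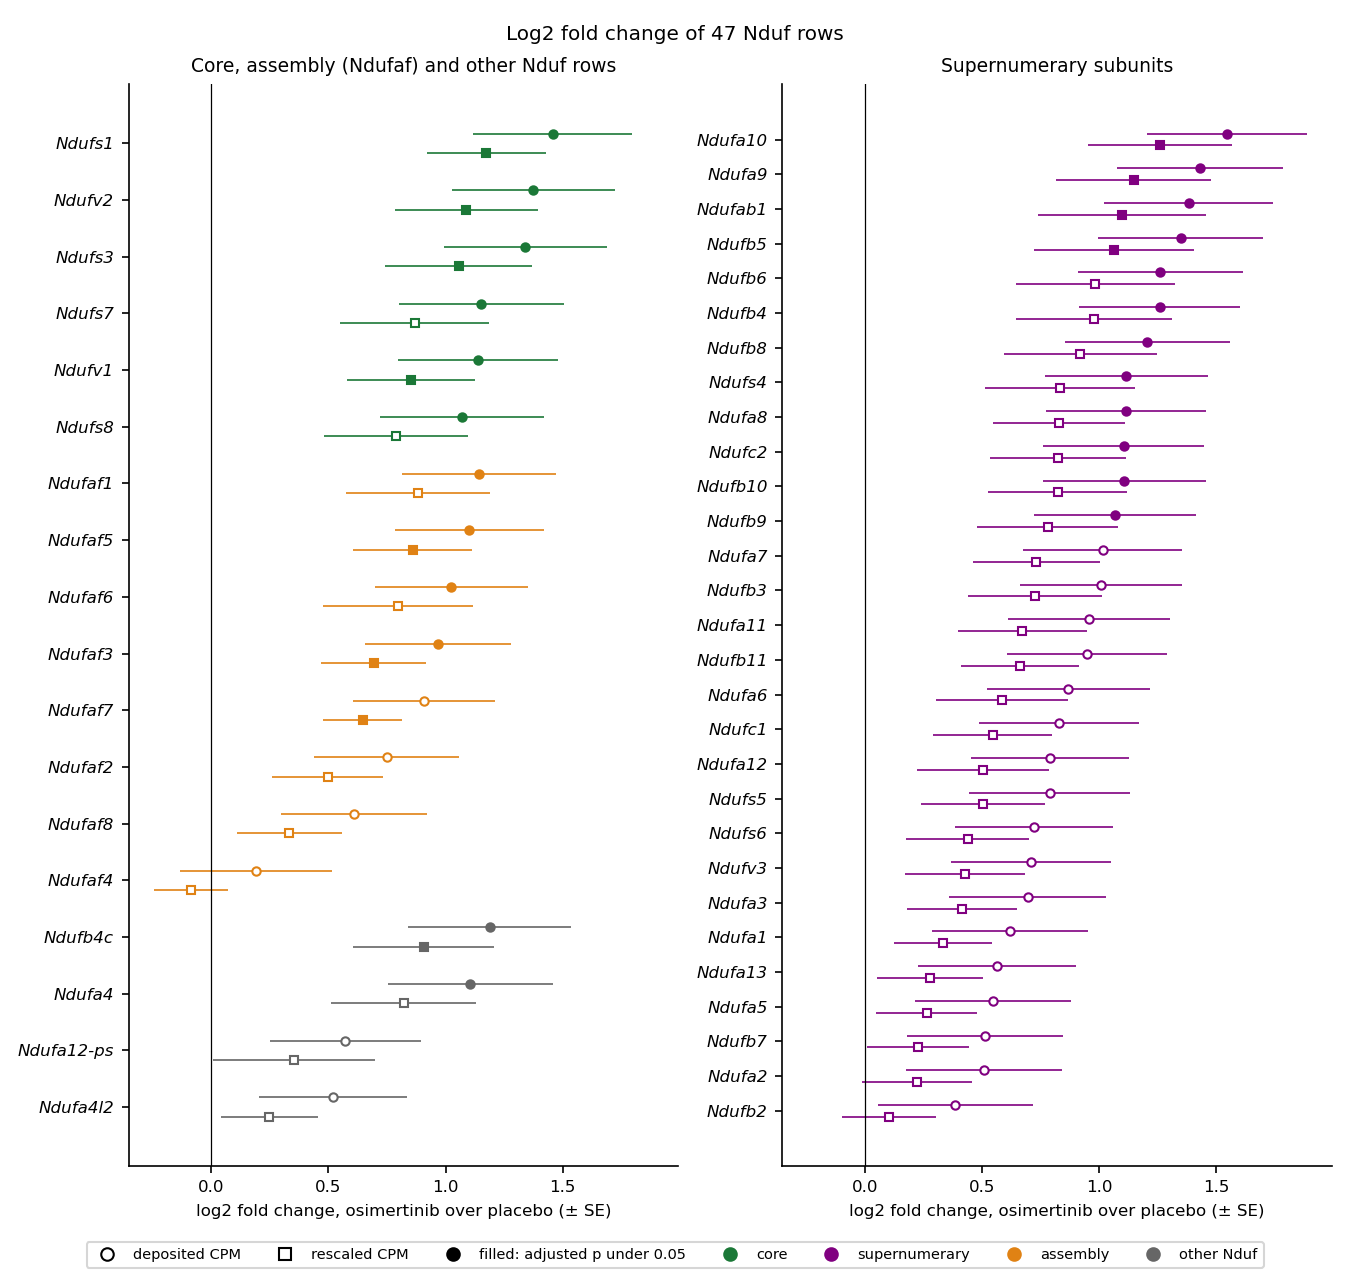
Log2 fold change of osimertinib over placebo (x axis, with standard errors) for 47 of the 48 Nduf rows (y axis), with circles for the deposited CPM and squares for the rescaled CPM, filled where the adjusted p was under 0.05. The 6 core subunits shown lie between 1.07 and 1.46 in the deposited CPM, and Ndufaf4 and Ndufb2 have the smallest values of their classes.

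Since most fold changes had the same sign, their promoters were searched for letters bound by factors known to act on respiratory chain genes. RefSeq promoters (GRCm38.p6, 250 bases before to 50 after the start) were at hand for 40 of the 48 members. AAGATGGCG, letters bound by YY1, was found on either strand in 6 of 40 members (15.0%), in 3.7% of the 9584 tested genes with a promoter and in 1.6% of all 27025 genes with one. GCGCATGCG, bound by NRF1 (nuclear respiratory factor 1), was found in 4 of 40 (10.0%), in 4.1% of tested genes and in 2.0% of all genes. CCGGAAG, bound by ETS factors such as GABPA, was found in 6 of 40 (15.0%), against 20.2% of tested genes and 9.9% of all genes. TCAAGGTCA, bound by estrogen-related receptors, was in none of the 40, against 0.3% of tested genes and 0.5% of all genes. AAGGTCA, which lies within it and is bound by many nuclear receptors, was in 3 of 40 (7.5%), against 3.8% and 5.4%. The following 170-base windows, from 120 bases before the start to 50 after it, span members with large and small fold changes, with the YY1 letters in capitals in Ndufa9, Ndufs7, Ndufs4 and Ndufs6 and the NRF1 letters, joined where matches on both strands overlap, in Ndufa8, Ndufaf5 and Ndufaf4.
Ndufa9 (chr6:126849095-126849264, minus strand): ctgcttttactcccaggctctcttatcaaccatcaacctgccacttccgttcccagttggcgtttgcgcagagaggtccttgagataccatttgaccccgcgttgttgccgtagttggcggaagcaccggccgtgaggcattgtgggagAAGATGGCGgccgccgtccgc
Ndufs7 (chr10:80249329-80249498, plus strand): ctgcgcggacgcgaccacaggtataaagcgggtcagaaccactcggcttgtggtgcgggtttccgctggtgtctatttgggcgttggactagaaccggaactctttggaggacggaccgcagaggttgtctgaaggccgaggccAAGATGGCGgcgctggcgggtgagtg
Ndufs4 (chr13:114388045-114388214, minus strand): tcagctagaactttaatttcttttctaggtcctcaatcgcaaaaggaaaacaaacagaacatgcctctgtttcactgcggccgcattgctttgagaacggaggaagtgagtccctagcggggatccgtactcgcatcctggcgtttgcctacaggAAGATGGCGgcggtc
Ndufs6 (chr13:73328433-73328602, minus strand): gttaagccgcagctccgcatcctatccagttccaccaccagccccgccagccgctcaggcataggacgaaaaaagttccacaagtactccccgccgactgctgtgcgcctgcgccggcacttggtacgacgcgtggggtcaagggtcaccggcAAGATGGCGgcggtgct
Ndufa8 (chr2:36049289-36049458, minus strand): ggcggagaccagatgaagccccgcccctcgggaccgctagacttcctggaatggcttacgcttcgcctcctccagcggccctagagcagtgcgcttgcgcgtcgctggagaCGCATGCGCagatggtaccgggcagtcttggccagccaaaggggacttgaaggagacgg
Ndufaf5 (chr2:140170526-140170695, plus strand): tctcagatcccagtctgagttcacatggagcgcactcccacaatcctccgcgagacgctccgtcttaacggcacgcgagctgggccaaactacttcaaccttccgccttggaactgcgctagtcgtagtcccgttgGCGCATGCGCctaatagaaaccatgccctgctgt
Ndufaf4 (chr4:24897963-24898132, plus strand): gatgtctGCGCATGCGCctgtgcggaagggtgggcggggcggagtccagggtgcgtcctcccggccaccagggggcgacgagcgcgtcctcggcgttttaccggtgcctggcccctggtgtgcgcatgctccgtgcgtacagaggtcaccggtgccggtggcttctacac
In the 4 YY1 windows the match lay on the gene's own strand, downstream of the start, whereas the NRF1 matches lay upstream of it in Ndufa8 and Ndufaf4 and downstream in Ndufaf5. The members with the YY1 letters had a median rescaled log2 fold change of 0.69 (range 0.33 to 1.15), and the 34 without them 0.73 (range -0.09 to 1.26). Those with the NRF1 letters had a median of 0.75 (range -0.09 to 0.86), against 0.73 (range 0.10 to 1.26) in the 36 without. A match is a description of the letters and not a site.

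Of the 7 core subunits encoded in the nucleus, all 7 rose in the deposited CPM, with a median log2 fold change of 1.34 (range 1.07 to 1.46), and 5 of 7 also rose after rescaling, with a median of 1.06 (range 0.79 to 1.17). Among all genes 6.62% were called higher in the deposited CPM and 10.4% after rescaling. Ndufs1, the largest core subunit, which holds iron-sulfur clusters of the NADH-oxidizing module and lies at chr1:63143596-63176833 (GRCm38), had 102.9, 143.1, 215.1, 114.4 and 240.6 rescaled CPM in osimertinib libraries 1 to 5, against 49.0, 62.2, 88.1, 93.3 and 58.3 in placebo libraries 1 to 5. Every osimertinib library was above every placebo library, with osimertinib libraries 3 and 5 the highest. Ndufs1 rose by a log2 fold change of 1.46 ± 0.34 (SE) in the deposited CPM (adjusted p = 0.00524) and 1.17 ± 0.25 after rescaling (adjusted p = 0.0162), and it was called in all 10 fits that left out a library under each scaling (highest adjusted p 0.0262 and 0.0484).

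Ndufv2, which holds an iron-sulfur cluster next to the flavin, had 169.9, 210.8, 309.1, 177.3 and 340.4 rescaled CPM in osimertinib libraries 1 to 5, against 64.6, 89.8, 186.2, 168.8 and 83.0 in placebo libraries 1 to 5. The groups overlapped, since placebo library 3 exceeded osimertinib libraries 1 and 4. Its log2 fold change was 1.37 ± 0.35 in the deposited CPM (adjusted p = 0.00937) and 1.09 ± 0.30 after rescaling (adjusted p = 0.0308), the second being called in 5 of 10 fits without a library.

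Of 4 further core subunits, Ndufs3, a subunit of the ubiquinone-reducing module, averaged 154.9 ± 60.6 rescaled CPM in osimertinib and 75.7 ± 33.7 in placebo (SD, n = 5 each), a log2 fold change of 1.06 ± 0.31 (adjusted p = 0.0361). Of the 31-base words of its transcript, 49.3% also occur in other genes, chiefly the processed pseudogene Gm12251, which averaged 0.807 CPM. Ndufv1, which binds NADH and the flavin, averaged 400.0 ± 121 rescaled CPM in osimertinib and 227.4 ± 89.0 in placebo, with a log2 fold change of 0.85 ± 0.27 (adjusted p = 0.0453). Ndufs7, which carries the last iron-sulfur cluster before ubiquinone, and Ndufs8, which carries a pair of clusters before it, were called in the deposited CPM (1.15 ± 0.35, adjusted p = 0.0329, and 1.07 ± 0.35, adjusted p = 0.0462). After rescaling their log2 fold changes were 0.87 ± 0.32 (adjusted p = 0.0678) and 0.79 ± 0.31 (adjusted p = 0.0823), so that neither passed. In all 7 core subunits, under rescaling, every osimertinib library lay above the placebo mean. The deposited count of 7 became 3 without osimertinib library 3 and 4 without osimertinib library 2 or 5 or placebo library 1 or 5, and 4 in CPM without mitochondrially encoded and haemoglobin genes. The rescaled count of 5 became 1 without osimertinib library 3 or 5 or placebo library 1, 2 or 5, 2 without osimertinib library 2, and 7 without placebo library 3 or 4.

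**Figure D2:**
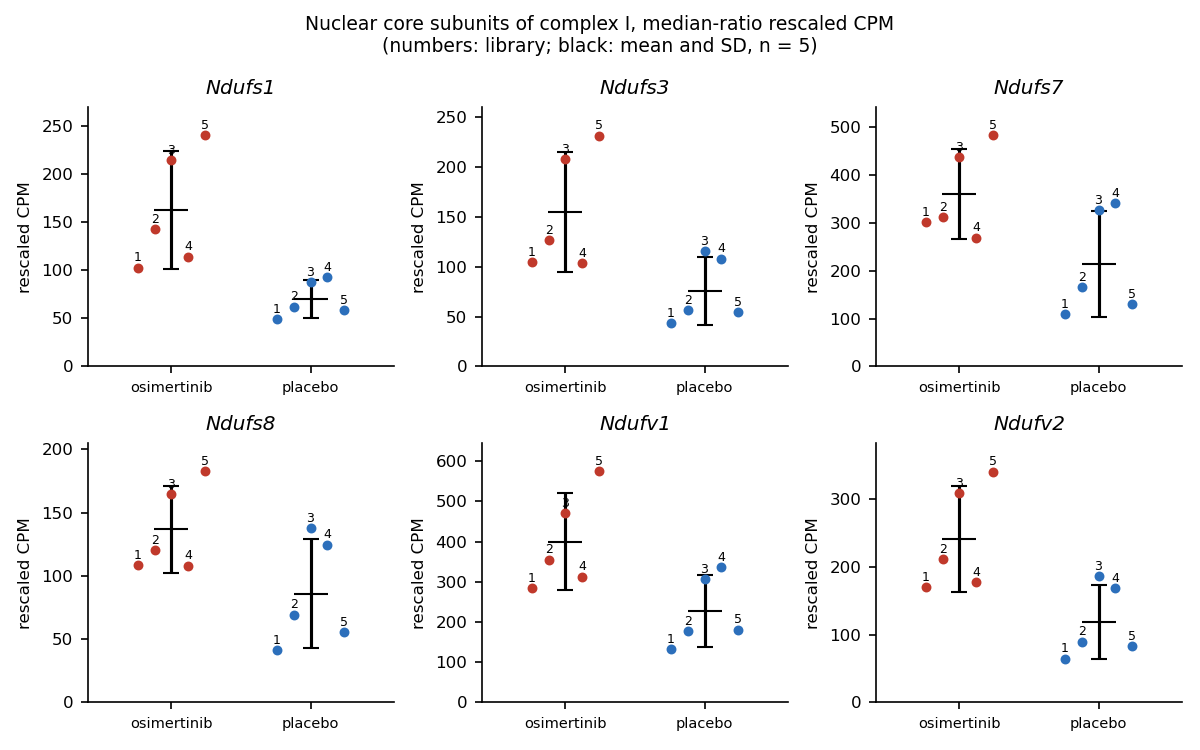
Rescaled CPM (y axes, from 0) of 6 of the 7 core subunits in each library of osimertinib and placebo (numbers: library), with the mean and SD of 5 libraries in black. The groups are apart in Ndufs1, and in each of the other 5 placebo library 3 exceeds osimertinib library 1.

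The 29 supernumerary subunits spanned a wider range of fold changes than the 7 core subunits. In the deposited CPM 12 of 29 rose, with a median log2 fold change of 0.96 (range 0.39 to 1.54), and after rescaling 4 of 29 rose, with a median of 0.67 (range 0.10 to 1.26). Of all genes 6.62% were called higher in the deposited CPM, and the rescaled count is near the 10.4% called higher after rescaling. Those 4 were Ndufa10, Ndufa9, Ndufab1 and Ndufb5. Ndufa10, a subunit on the matrix face of the membrane arm with a fold related to nucleoside kinases, had 124.6, 158.8, 269.6, 131.1 and 307.5 rescaled CPM in osimertinib libraries 1 to 5, against 45.2, 62.7, 116.2, 109.8 and 74.1 in placebo libraries 1 to 5. All osimertinib values exceeded all placebo values, the closest pair being osimertinib library 1 and placebo library 3. Ndufa10 (chr1:92439010-92473860) had the highest log2 fold change of the family, 1.54 ± 0.34 in the deposited CPM (adjusted p = 0.0041) and 1.26 ± 0.31 after rescaling (adjusted p = 0.0211). It was called in 10 of 10 deposited fits and 7 of 10 rescaled fits without a library, and lost after rescaling without osimertinib library 3 or 5 or placebo library 2 (highest adjusted p 0.0614).

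Ndufa9, which helps to join the ubiquinone-reducing module to the membrane arm and whose promoter window is given above, had 183.2, 216.6, 323.0, 177.1 and 368.2 rescaled CPM in osimertinib libraries 1 to 5, against 60.7, 93.9, 194.0, 182.8 and 76.8 in placebo libraries 1 to 5. Osimertinib libraries 1 and 4 lay within the range of placebo. Its rescaled log2 fold change was 1.15 ± 0.33 (adjusted p = 0.034). Ndufab1, the mitochondrial acyl carrier protein, rose by 1.10 ± 0.36 after rescaling (adjusted p = 0.0476), with 162.5 to 353.1 rescaled CPM in osimertinib and 61.2 to 198.9 in placebo. Ndufb5, a membrane arm subunit, rose by 1.06 ± 0.34 (adjusted p = 0.0456), with 146.0 to 319.7 rescaled CPM in osimertinib and 52.8 to 180.3 in placebo. Ndufb6 and Ndufb4, also of the membrane arm, had rescaled log2 fold changes of 0.98 ± 0.34 (adjusted p = 0.056) and 0.98 ± 0.33 (adjusted p = 0.0536), and both were called in the deposited CPM (adjusted p = 0.019 and 0.0169). The other 6 supernumerary subunits called in the deposited CPM and not after rescaling were Ndufa8, Ndufb8, Ndufb9, Ndufb10, Ndufc2 and Ndufs4. The deposited count of 12 became 7 without osimertinib library 2, 4 without osimertinib library 3 or 5 or placebo library 1, 20 without placebo library 3 and 2 without placebo library 5, and 2 in CPM without mitochondrially encoded and haemoglobin genes. The rescaled count of 4 became 0 without osimertinib library 3 or 5 or placebo library 2, 1 without osimertinib library 2 or placebo library 1 or 5, 18 without placebo library 3 and 15 without placebo library 4.

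At the other end stood 5 supernumerary subunits with small fold changes. Ndufb2, of the membrane arm, had 140.2, 129.0, 140.6, 122.1 and 160.8 rescaled CPM in osimertinib libraries 1 to 5, against 84.4, 106.1, 182.3, 178.5 and 120.4 in placebo libraries 1 to 5. Placebo libraries 3 and 4 were the highest of all 10 and placebo library 1 the lowest. The rescaled log2 fold change of Ndufb2 was 0.10 ± 0.20 (adjusted p = 0.74). Ndufa2, of the NADH-oxidizing module, and Ndufb7, on the intermembrane side of the membrane arm, had 0.22 ± 0.24 and 0.23 ± 0.22. Ndufa5, of the ubiquinone-reducing module, and Ndufa13, also known as GRIM-19, had 0.26 ± 0.22 and 0.28 ± 0.22. None of these 5 passed in either scaling (adjusted p = 0.336 or above in the deposited CPM and 0.385 or above after rescaling). Ndufs4 and Ndufs6, accessory subunits whose loss causes complex I deficiency in humans and whose promoter windows are given above, had rescaled log2 fold changes of 0.83 ± 0.32 (adjusted p = 0.0786) and 0.44 ± 0.26 (adjusted p = 0.238). Reads of Ndufs6 may be divided with Ndufs6b, which shares 26.8% of its words.

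By structural module, the NADH-oxidizing module had 4 of 8 subunits higher in the deposited CPM and 3 of 8 after rescaling, with median log2 fold changes of 0.95 and 0.67. The ubiquinone-reducing module had 5 of 8 and 3 of 8, with medians of 1.11 and 0.83. The membrane arm, without its mitochondrially encoded part, had 10 of 20 and 3 of 20, with medians of 1.04 and 0.75. Over all genes 6.62% were higher in the deposited CPM and 10.4% after rescaling, so the rescaled count of the membrane arm is near that of all genes. Within the NADH-oxidizing module the 3 core subunits were the called ones after rescaling, and none of its 5 supernumerary subunits was, at a median of 0.44.

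The core subunits also stood further above the supernumerary ones within each osimertinib library than within each placebo library, a difference that rescaling does not touch, except through the pseudocount. The mean log2(CPM + 0.5) of the 7 core genes minus that of the 29 supernumerary genes was 0.51, 0.71, 0.86, 0.66 and 0.85 in osimertinib libraries 1 to 5, against 0.39, 0.43, 0.32, 0.43 and 0.37 in placebo libraries 1 to 5. All osimertinib libraries were above all placebo libraries, at 0.72 ± 0.15 and 0.39 ± 0.05 (SD, n = 5 each). The placebo libraries lay close together in this difference although their supernumerary level itself ran from -1.06 to 0.40 (rescaled, log2, centred over the 10 libraries). No p is given for this difference, since it is a score over chosen members. The 8 assembly genes lay at -3.57 ± 0.08 relative to the supernumerary genes in osimertinib and -3.46 ± 0.24 in placebo, and the groups overlapped.

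**Figure D3:**
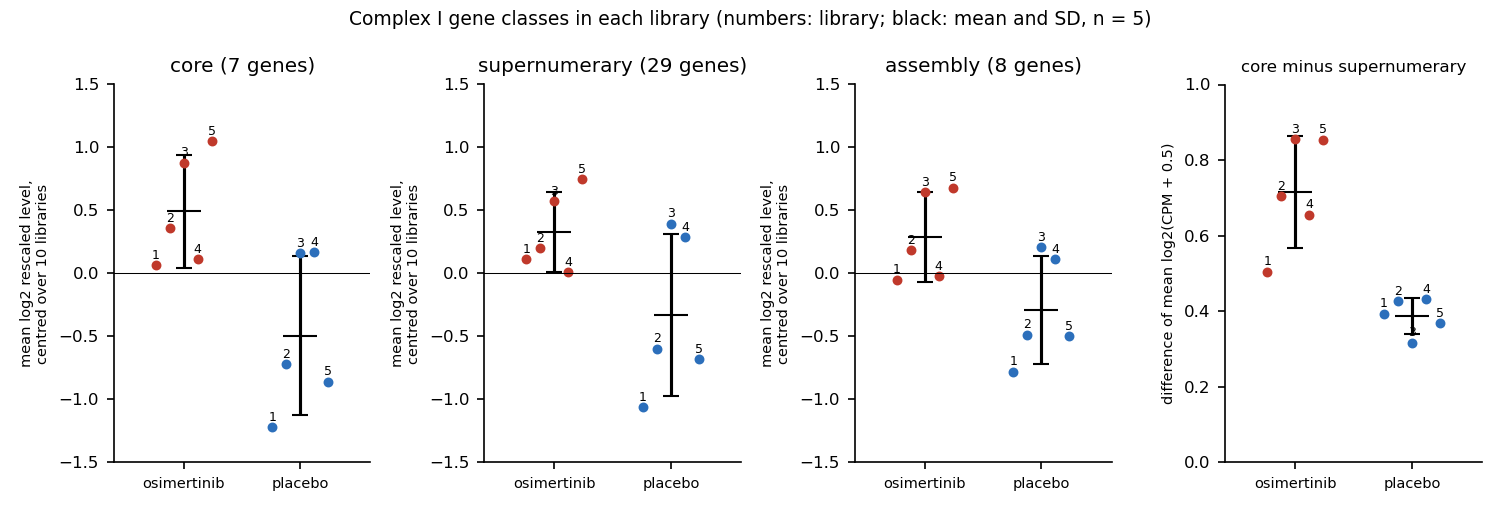
Mean log2 rescaled level of the core, supernumerary and assembly genes, centred over 10 libraries, and the core mean minus the supernumerary mean (y axes) in each osimertinib and placebo library (numbers), with the mean and SD of 5 libraries in black. Placebo libraries 3 and 4 sit among the osimertinib libraries in the first 3 panels, whereas the last panel runs from 0.51 to 0.86 in osimertinib and from 0.32 to 0.43 in placebo.

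The 8 assembly factors were far less abundant than the subunits, at 6.11 to 23.6 CPM per kilobase of transcript in osimertinib and 3.20 to 16.3 in placebo, against 35.1 to 683.8 and 25.6 to 422.1 CPM per kilobase for the 36 subunits. In the deposited CPM 4 of 8 rose (Ndufaf1, Ndufaf3, Ndufaf5 and Ndufaf6), with a median log2 fold change of 0.94, and after rescaling 3 of 8 rose (Ndufaf3, Ndufaf5 and Ndufaf7), with a median of 0.67 (range -0.09 to 0.88). The shares of all genes called higher were 6.62% in the deposited CPM and 10.4% after rescaling. Ndufaf5, a hydroxylase that modifies NDUFS7 in human cells, had 5.78, 7.50, 11.2, 7.56 and 10.8 rescaled CPM in osimertinib libraries 1 to 5, against 3.18, 3.71, 5.98, 7.54 and 2.89 in placebo libraries 1 to 5. Placebo libraries 3 and 4 overlapped with osimertinib. The rescaled log2 fold change of Ndufaf5 was 0.86 ± 0.25 (adjusted p = 0.0358). Ndufaf7, a methyltransferase that acts on complex I in human cells, rose by 0.65 ± 0.17 after rescaling (adjusted p = 0.0252), with 7.15 to 12.5 rescaled CPM in osimertinib and 4.74 to 7.40 in placebo, and missed the threshold in the deposited CPM (adjusted p = 0.0527). Ndufaf3, which acts early with Ndufaf4, rose by 0.69 ± 0.22 after rescaling (adjusted p = 0.0467), with 14.9 to 24.2 rescaled CPM in osimertinib and 7.15 to 15.9 in placebo.

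Ndufaf1, which works with Ecsit and Acad9 on the membrane arm, and Ndufaf6, an early factor, passed in the deposited CPM (adjusted p = 0.0224 and 0.0401), and had 0.88 ± 0.31 (adjusted p = 0.0567) and 0.80 ± 0.32 (adjusted p = 0.0895) after rescaling. Ndufaf2, which acts when the NADH-oxidizing module joins, and Ndufaf8, the partner of Ndufaf5, passed in neither, at rescaled log2 fold changes of 0.50 ± 0.24 and 0.33 ± 0.22. Ndufaf4 had 27.1, 34.6, 28.3, 25.9 and 29.2 rescaled CPM in osimertinib libraries 1 to 5, against 22.6, 32.3, 39.2, 38.0 and 25.1 in placebo libraries 1 to 5. The osimertinib values of Ndufaf4 lay within the placebo range, with log2 fold changes of 0.19 ± 0.32 in the deposited CPM (adjusted p = 0.79) and -0.09 ± 0.16 after rescaling (adjusted p = 0.713). The deposited assembly count of 4 became 0 without osimertinib library 3 or 5 or placebo library 1 or 5, and 0 in CPM without mitochondrially encoded and haemoglobin genes. The rescaled assembly count of 3 became 0 without osimertinib library 3 or 5 or placebo library 1 or 2, and 1 without osimertinib library 2 or placebo library 5.

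The remaining 4 rows are not complex I subunits in the usual sense. Ndufa4, now placed in cytochrome c oxidase, rose in the deposited CPM (1.11 ± 0.35, adjusted p = 0.0408) and had 0.82 ± 0.31 after rescaling (adjusted p = 0.0741), with 331.1 to 541.5 rescaled CPM in osimertinib and 136.0 to 414.6 in placebo. Ndufa4l2, a relative of Ndufa4 that is induced by hypoxia, had 0.25 ± 0.21 after rescaling (adjusted p = 0.404). Ndufb4c, whose words all occur in Ndufb4, was called in both scalings (rescaled 0.91 ± 0.30, adjusted p = 0.0499), and its reads and those of Ndufb4 cannot be told apart with certainty. Ndufa12-ps, which shares 84.9% of its words with Ndufa12, was not called (rescaled 0.35 ± 0.35, adjusted p = 0.481).

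To ask which members moved more or less than the complex as a whole, the mean log2(CPM + 0.5) of the 36 subunits was subtracted in each library and all genes were fitted again. This centring alone puts the median log2 fold change of all 12350 genes at -0.74, so relative values of other genes are read against that median. None of the 48 was called higher, where 0.0729% of all genes were, and 1 was called lower, where 18.1% of all genes were. That 1 was Ndufaf4, at a relative log2 fold change of -0.82 ± 0.27 (adjusted p = 0.0474), close to the median of all genes on this scale. Its level relative to the subunits was -2.31, -2.10, -2.78, -2.30 and -2.91 in osimertinib libraries 1 to 5, against -1.37, -1.34, -2.03, -1.99 and -1.58 in placebo libraries 1 to 5. All osimertinib values of Ndufaf4 were thus below all placebo values, by little between osimertinib library 2 and placebo library 3, and the call held in 3 of 10 fits without a library (highest adjusted p 0.144), being lost without osimertinib library 1, 2, 3 or 5 or placebo library 1, 2 or 5. Without osimertinib library 2, 3 or 5 or placebo library 1, 2 or 5, 0 of all 12350 genes were called on this scale. Without osimertinib library 1 the share of all genes called was 16.3%. In the fits that kept the call, without osimertinib library 4 or placebo library 3 or 4, 22.6%, 61.4% and 52.6% of all genes were called.

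On this relative scale 4 of 48 had osimertinib wholly above placebo, namely Ndufs3, Ndufv2, Ndufa9 and Ndufb10. A further 8 of 48 had osimertinib wholly below placebo, namely Ndufaf4, Ndufa2, Ndufa3, Ndufa5, Ndufb2, Ndufb7, Ndufs5 and Ndufv3. Over all genes the shares were 0.348% above and 5.95% below, which the centring on these members sets, and nothing about the members is read from them. Ndufv2 was at 0.31, 0.50, 0.65, 0.45 and 0.61 relative to the mean in osimertinib libraries 1 to 5, against 0.12, 0.12, 0.20, 0.15 and 0.10 in placebo libraries 1 to 5. The placebo values of Ndufv2 thus lay close together while the osimertinib values were spread. Ndufb2 was at 0.04, -0.21, -0.49, -0.08 and -0.47 in osimertinib libraries 1 to 5, against 0.51, 0.36, 0.17, 0.23 and 0.63 in placebo libraries 1 to 5, all above the osimertinib values, with a relative log2 fold change of -0.62 ± 0.22 (adjusted p = 0.0538). The highest relative log2 fold change was that of Ndufa10, at 0.54 ± 0.22 (adjusted p = 0.0773), followed by Ndufs1, at 0.45 ± 0.23 (adjusted p = 0.12).

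Across the 36 subunits, longer transcripts tended to have larger fold changes. The rescaled log2 fold change and the length of the principal GENCODE transcript had a Spearman rho of 0.46 and a Pearson r of 0.32 there. Across all 48 members the rho was 0.29 and the r 0.15, and across 12318 tested genes both were -0.19. These are correlations across genes, which share libraries and are not independent replicates. The core transcripts had a median length of 1623 bases (983 to 2661), the supernumerary ones 763 bases (419 to 4371) and the assembly ones 1308.5 bases (678 to 3632). The longest principal transcripts of the core, supernumerary and assembly classes were those of Ndufs1, Ndufb2 and Ndufaf4, at 2661, 4371 and 3632 bases. Their rescaled log2 fold changes were 1.17, 0.10 and -0.09. Where a gene had several principal transcripts of equal rank, the longest was taken. GC content had a rho of -0.19 with the fold change over the 36 subunits, and the mean log2 level a rho of 0.05. The part of transcript length in the core and supernumerary difference was not tested.

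**Figure D4:**
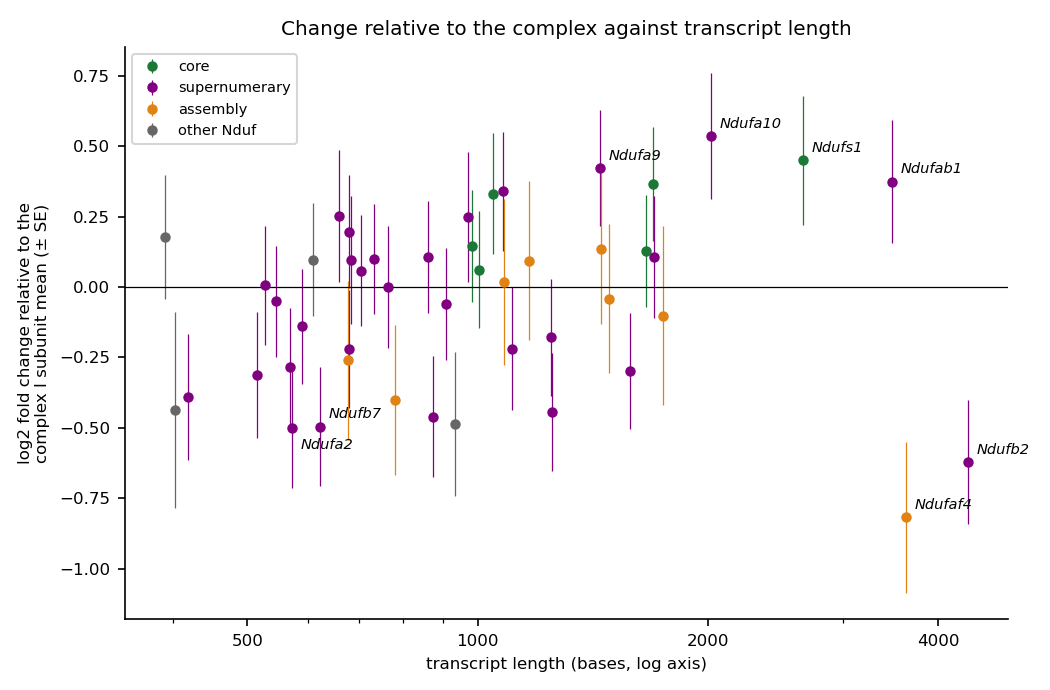
Log2 fold change of osimertinib over placebo relative to the mean of the 36 subunits (y axis, with standard errors) against the length of the principal transcript (x axis, log scale) for 47 of the 48 members, coloured by class. The 6 core subunits shown lie above 0, between 0.06 and 0.45, and Ndufaf4 and Ndufb2 lie lowest at -0.82 and -0.62.

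Assembly genes without an Nduf symbol were set beside the family. Of 11 tested, 3 were called higher under either scaling, the iron-sulfur carrier Nubpl (rescaled 0.98 ± 0.28, adjusted p = 0.0336), Tmem70 (0.84 ± 0.26, adjusted p = 0.0431) and Tmem242 (0.69 ± 0.20, adjusted p = 0.033), of which Tmem70 and Tmem242 also act on ATP synthase. Over all genes 6.62% were called higher in the deposited CPM and 10.4% after rescaling. Nubpl was the least abundant of the 11, at 1.43 CPM per kilobase of transcript in osimertinib and 0.58 in placebo. Of its 31-base words, 13.7% also occur in another gene, Gm7514. Dmac2, a factor of the distal membrane arm, was called lower after rescaling, at -0.32 ± 0.10 (adjusted p = 0.0464), with 34.0 to 40.4 rescaled CPM in osimertinib and 39.7 to 50.6 in placebo, and was not called in the deposited CPM (-0.04 ± 0.32, adjusted p = 0.96). Its rescaled call held in 1 of 10 fits without a library, and 1 of 11 is near the 10.5% of all genes called lower after rescaling. Relative to the subunits, Dmac2 and Foxred1, an oxidoreductase needed late in assembly, were called lower (-1.05 ± 0.30, adjusted p = 0.0406, and -0.93 ± 0.27, adjusted p = 0.042), as Ndufaf4 was, and 2 of 11 is about the share of all genes called lower on this scale, 18.1%. The median rescaled log2 fold change of the 11 was 0.51, against 0.67 for the 8 Ndufaf genes.

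The 7 core subunits encoded in mitochondrial DNA, which build the proton-pumping part of the membrane arm, were not called under either scaling. They had median log2 fold changes of -0.40 in the deposited CPM and -0.68 after rescaling, and 6 of 7 had a negative value in the deposited CPM, mt-Nd6 being the exception at 0.27 ± 0.32. mt-Nd1 had 44514, 33083, 34052, 35333 and 33231 CPM as deposited in osimertinib libraries 1 to 5, against 45490, 34900, 39030, 43695 and 66599 in placebo libraries 1 to 5. The groups overlapped, with placebo library 5 far above the rest. Relative to the nuclear subunits 5 of 7 were called lower, mt-Nd1, mt-Nd2, mt-Nd3, mt-Nd4 and mt-Nd4l, at log2 fold changes of -1.33 to -1.71 (adjusted p = 0.0402 to 0.049), and mt-Nd5 had -1.40 ± 0.50 (adjusted p = 0.055). On this scale 18.1% of all genes were called lower and the median gene lay at -0.74, so part of these values is the centring itself. Each of the 5 calls held in 4 of 10 fits without a library, and in the other fits 0 of all 12350 genes were called. The mean log2 level of the mt-Nd genes minus that of the supernumerary genes was 4.34 ± 0.53 in osimertinib and 5.63 ± 1.15 in placebo (SD, n = 5 each), with overlapping ranges of 3.78 to 5.08 and 4.57 to 7.42. Reads of mt-Nd3, mt-Nd4l and mt-Nd4 are uncertain, since 98.1%, 98.9% and 62.8% of their words occur in nuclear copies on chromosome 1. In the same order these copies, Gm28438, Gm10222 and Gm28439, averaged 2817, 1042 and 192.9 CPM as deposited.

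Among all tested genes without an Nduf symbol, the 5 whose rescaled log2 level followed the mean of the core subunits most closely over the 10 libraries were Slc25a4, Ak1, Aldoa, Suclg1 and Uqcrc1. Slc25a4, the ADP/ATP carrier of heart mitochondria, had a Pearson r of 0.998 and a Spearman rho of 0.988. Ak1, the cytosolic adenylate kinase, Aldoa, the glycolytic aldolase, Suclg1, a subunit of succinyl-CoA ligase, and Uqcrc1, a core subunit of complex III, had r between 0.997 and 0.998. Within osimertinib alone and placebo alone r lay between 0.994 and 0.999 for these 5, and without placebo libraries 1 and 5, the 2 farthest from the median, between 0.995 and 0.998. These genes were picked for this likeness, so the values are descriptions, and no p is given. Among the Nduf rows themselves Ndufaf4 followed the core mean least (r = 0.393, and -0.209 without placebo libraries 1 and 5), with Ndufb2 next (r = 0.728, and 0.489 without them).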

How the data were processed

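The 10 samples were left ventricular tissue of mice after TAC, 5 given osimertinib and 5 given placebo, grouped by their titles. The authors deposited one CPM value per gene and library, each library scaled to a total of 1000000 and with no factor between libraries. The design text gives poly(A)-selected, strand-specific libraries, STAR alignment to GRCm38, RSEM quantification in the nf-core pipeline, and the authors' own test by limma and voom. The submitters' processing notes instead list DESeq2, StringTie 1.3.4d, HISAT2 2.0.4, cutadapt 1.9 and the build hg38, which is human. Coordinates and transcripts came from GENCODE M21 (GRCm38), in which 98.8% of the 45706 mouse identifiers were found. Between 90.67% and 93.35% of low values per library corresponded to whole reads within 0.01 read, too few for a test of whole counts. Libraries were compared in 45 pairs by chi-square, and the closest pair had 23.9 per degree of freedom, far above sampling noise.

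The 12350 genes that reached 1 CPM in 5 or more libraries were tested on log2(CPM + 0.5) with limma 3.58.1 (R 4.3.3, intensity trend, two-sided), p-values were adjusted over all of them by Benjamini-Hochberg, and calls were made at 0.05. The pseudocount understates fold changes of low genes. Errors of fold changes are limma's moderated standard errors (SE). The same fit was run on the deposited CPM, after median-ratio rescaling, and relative to the mean of the 36 subunits. The script was checked on simulated data. The members, classes, marker lists and tests were chosen with earlier results of these data known. The text names all core, assembly and mt-Nd genes except 1 nuclear core subunit, which enters the counts, medians and means and is not reported here by itself, Ndufa4, Ndufa4l2, Ndufab1, Ndufs4 and Ndufs6, the 5 largest and 5 smallest rescaled fold changes of the remaining supernumerary genes, members called under one scaling, and the 5 genes most like the core mean. Ndufv3, Ndufs5, Ndufa3 and Ndufb10, the non-overlapping members on the relative scale, and the other assembly genes were named after their values were seen. Alternatives were other pseudocounts and filters, no trend, array weights, an atrial covariate, voom on estimated reads, other scalings, a replicate block, and fits without each library in turn. Ndufb1 and Coa1 were not analysed here.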

Additional observations from a re-analysis of the deposited data

Results flagged for a closer look

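Among 74 groups of 5 libraries, 9 held a library whose gap to the nearest other took a share of the group's range above Dixon's 95% critical value, where chance flags about 1 in 20 groups. All 9 were mitochondrially encoded complex I genes in rescaled CPM, and none was among the Nduf genes screened. The 74 groups were too few to hold all 48 Nduf genes, so nothing is said of those not screened. In osimertinib, library 1 stood above the other 4 in mt-Nd1 (45405, others 27078 to 32389), mt-Nd2 (32919, others 18231 to 22227) and mt-Nd4 (57520, others 34674 to 39785). In placebo, library 5 stood above the other 4 in mt-Nd1 (146530, others 25963 to 47202), mt-Nd2 (114549, others 20583 to 34859) and mt-Nd3 (4642, others 1279 to 2090). Placebo library 5 did so as well in mt-Nd4 (168813, others 34708 to 56720), mt-Nd4l (411.7, others 79.4 to 128.3) and mt-Nd5 (105122, others 18684 to 33727). These genes share their reads' source and are not independent of each other. Osimertinib library 1 and placebo library 5 also held the highest mitochondrial share of their groups, at 45.2% and 63.4% of reads. Rescaling divided placebo library 5 by 0.455, against 0.926 to 1.34 in the other libraries. Its rescaled values are thus raised over its deposited ones, which for mt-Nd1 are given above, and part of its distance here is the rescaling.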

How the results depend on the processing

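No alternative run called an Nduf gene lower in the deposited or rescaled CPM, or higher relative to the complex. For the deposited CPM (25 called), limma called 0 without the filter on low values (33 at an unadjusted p under 0.05), 16 with array weights, 13 with voom on estimated reads and 6 in CPM without mitochondrially encoded and haemoglobin genes, and 6 to 34 when a library was left out. In the same order 0%, 20.9%, 4.84%, 5.07% and 2.49% to 9.12% of all genes were called, against 6.74% in the main fit. In 7 of the 10 deposited fits without a library the shared variance had an infinite prior, so a gene's own spread did not enter. The same held in the deposited fits with the replicate block and with the atrial covariate, and in the relative fit with the replicate block. In the main deposited fit the prior had 72.9 degrees of freedom, against 4.45 after rescaling. A gene's own spread thus weighed little in the deposited p-values and standard errors. For the rescaled CPM (13 called) limma called 2 without the filter, 8 without the trend, 20 with array weights and 41 with the atrial covariate, and 1 to 31 without a library. Over all genes these fits called 5.67%, 18.3%, 24.9%, 39.5% and 4.22% to 22.7%, against 20.8% in the main fit. Relative to the complex (1 called) limma called 0 with a pseudocount of 0.1 (7 at an unadjusted p under 0.05) and 2 with a mean of at least 5 CPM, and 0 to 4 without a library. The shares of all genes called there were 12.2%, 21.8% and 0% to 61.4%, against 18.1% in the main fit. The fits without the filter tested 21622 genes. The counts at an unadjusted p have no share of all genes beside them, so nothing is read from those counts. The cause of these shifts was not tested.

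Same-numbered osimertinib and placebo samples had correlations of deviations of 0.428, 0.245, 0.464, -0.339 and -0.162, so the numbers were not taken to pair samples. With the replicate block 30, 19 and 1 Nduf genes were called in the deposited, rescaled and relative fits. Of all genes 10.7%, 23.9% and 31.5% were called in these fits, against 6.74%, 20.8% and 18.1% in the main fits. The single values that changed sign were mt-Nd5 rescaled (0.036 with quantile normalization), mt-Nd6 rescaled (0.15 with array weights, 0.059 with the atrial covariate and -0.27 to 0.28 without a library), Ndufb2 rescaled (-0.0038 with quantile normalization and -0.049 to 0.23 without a library) and Ndufb7 rescaled (-0.019 with quantile normalization). Ndufaf4 in the deposited CPM had -0.045 with array weights, -0.066 without mitochondrially encoded and haemoglobin genes and -0.12 to 0.35 without a library. With a pseudocount of 2 the relative values of Ndufaf1, Ndufaf5 and Ndufaf6 were -0.0028, -0.12 and -0.23, and without a library those of Ndufaf3, Ndufaf6 and Ndufaf7 ran from -0.12 to 0.085, from -0.082 to 0.077 and from -0.27 to 0.067. Of the subunits and assembly factors with an Nduf symbol, depth limits mainly the Ndufaf genes, which lay between 0.939 and 43.4 CPM in single libraries. It also limits assembly genes of other names, above all Nubpl.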
